A study of Mus musculus with 23 samples.

Results

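The Hox cluster genes were taken as the protein-coding genes of the count table whose symbol consists of Hox, a cluster letter from a to d and a number, which gave 39 of 55487 genes. They lie in 4 clusters. In the GRCm38 annotation, the 11 Hoxa genes lie on the minus strand of chromosome 6, whereas the 10 Hoxb genes occupy chromosome 11 from 96194316 to 96368256, the 9 Hoxc genes chromosome 15 from 102921103 to 103036852 and the 9 Hoxd genes chromosome 2 from 74668310 to 74765142, with all but the Hoxa genes on the plus strand. The number in a symbol is the paralog group, from 1 to 13, and genes with the same number in different clusters are paralogs.

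Hox genes encode homeodomain transcription factors that give cells of the embryo their identity along the body axis. Low-numbered genes are used from the hindbrain backwards, high-numbered genes towards the tail and along the growing limb, and the order of the genes in a cluster matches the order of these regions. Fibroblasts keep the Hox pattern of the body site they came from when they are cultured, so the pattern is widely used as a record of position.

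RNA-seq was performed on primary mouse embryonic fibroblasts (MEFs), all of strain FVB/NJ, with 4 genotypes of the glucocorticoid receptor (GR). The receptor was unmodified (GRwt/wt) or homozygous for a mutant allele. In GRD/D cells an alanine is replaced by threonine where the DNA-binding domains of a receptor dimer meet, in GRL/L cells an isoleucine of the ligand-binding domain is replaced by alanine, and GRD+L/D+L cells have both changes. Cells received vehicle or 10 nM dexamethasone (Dex), a synthetic GR ligand, for 5 h, which gave 8 groups with 3 libraries each, except GRD/D vehicle with 2. The MEFs of all groups were grown from mid-gestation embryos of heterozygous crosses after the head and organs had been taken away, so that a culture holds fibroblasts from the rest of the body. The L and D+L alleles were made by CRISPR/Cas9 in zygotes and backcrossed to FVB/NJ, and each culture of a genotype was started from another mouse, per the study's methods. In such bulk RNA, fewer cells of a kind and less RNA per cell cannot be told apart.

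The promoters of the Hox genes that carry the genotype result are printed here because members of the same cluster moved in opposite directions. RefSeq windows on GRCm38.p6, from 250 bases before to 50 bases after a transcription start, matched 22 of the 39 genes (24 windows), and the other 17 genes had none in the table. The windows below belong to the members called in GRD+L/D+L against GRwt/wt in both treatments, Hoxa6 higher and the other five lower, with Hoxc11 left out for want of a window. They are Hoxa6 at chr6:52208623-52208922 (minus strand), Hoxa10 at chr6:52240805-52241104 (minus), Hoxa11 at chr6:52245761-52246060 (minus), Hoxd8 at chr2:74704365-74704664 (plus), Hoxd9 at chr2:74697513-74697812 (plus) and Hoxd10 at chr2:74691641-74691940 (plus). Sequences run 5′ to 3′ along the gene, and capitals mark a match to a CCAAT box on either strand, the only one of the searched motifs that these windows hold. Hoxa10 has another window, at chr6:52234890-52235189, which does not hold the annotated start and is not printed, and which holds both a TATAAA and a CCAAT match.
Hoxa6: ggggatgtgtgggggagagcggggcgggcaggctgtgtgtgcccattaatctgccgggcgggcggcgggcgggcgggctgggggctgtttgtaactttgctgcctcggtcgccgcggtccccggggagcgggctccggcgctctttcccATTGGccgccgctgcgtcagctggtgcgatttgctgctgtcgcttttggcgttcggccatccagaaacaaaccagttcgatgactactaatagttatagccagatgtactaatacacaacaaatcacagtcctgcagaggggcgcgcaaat
Hoxa10: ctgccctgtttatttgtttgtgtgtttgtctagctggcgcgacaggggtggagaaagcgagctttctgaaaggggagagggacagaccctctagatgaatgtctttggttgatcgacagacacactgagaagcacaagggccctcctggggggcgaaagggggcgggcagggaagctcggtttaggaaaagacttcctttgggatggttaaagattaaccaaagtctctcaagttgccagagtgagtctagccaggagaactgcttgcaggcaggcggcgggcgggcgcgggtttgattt
Hoxa11: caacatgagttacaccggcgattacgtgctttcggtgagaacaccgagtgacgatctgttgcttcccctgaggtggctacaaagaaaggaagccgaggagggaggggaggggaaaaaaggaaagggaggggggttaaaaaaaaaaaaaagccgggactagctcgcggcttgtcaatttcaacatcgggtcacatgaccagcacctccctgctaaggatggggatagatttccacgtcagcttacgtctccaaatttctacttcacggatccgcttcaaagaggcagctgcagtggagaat
Hoxd8: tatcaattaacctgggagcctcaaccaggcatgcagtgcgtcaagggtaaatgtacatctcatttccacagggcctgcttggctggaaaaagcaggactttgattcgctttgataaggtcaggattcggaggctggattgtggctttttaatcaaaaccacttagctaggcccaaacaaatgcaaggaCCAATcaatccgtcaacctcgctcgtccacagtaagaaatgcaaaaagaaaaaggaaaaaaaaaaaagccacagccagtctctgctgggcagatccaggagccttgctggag
Hoxd9: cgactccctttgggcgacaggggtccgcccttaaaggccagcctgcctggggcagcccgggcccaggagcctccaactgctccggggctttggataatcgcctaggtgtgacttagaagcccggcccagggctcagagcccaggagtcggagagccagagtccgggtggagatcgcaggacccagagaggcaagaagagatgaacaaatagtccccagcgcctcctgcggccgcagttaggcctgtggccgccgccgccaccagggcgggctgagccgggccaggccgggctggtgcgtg
Hoxd10: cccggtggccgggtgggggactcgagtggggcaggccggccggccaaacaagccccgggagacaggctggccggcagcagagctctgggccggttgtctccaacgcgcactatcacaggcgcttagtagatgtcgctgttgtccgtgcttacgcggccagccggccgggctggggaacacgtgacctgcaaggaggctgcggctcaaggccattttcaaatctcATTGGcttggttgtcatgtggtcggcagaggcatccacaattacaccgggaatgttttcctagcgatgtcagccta

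Each of the 6 windows holds the annotated start of its gene. CCAAT was found in 15 of the 24 Hox windows (62.5%), against 37.4% of all 32851 windows of the same length. TATAAA was found in 4 Hox windows (16.7% against 13.6% of all), the motif TGATNNAT of Hox proteins with a cofactor in 4 (16.7% against 8.85%), and the palindromic GR element (AGAACA and TGTTCT, 3 bases apart) in 0 (0.00913% of all), with both strands searched for each and no motif overlapping another in the 6 printed windows. Hox windows were rich in CG pairs, with a median of 14.5 against 7 in all windows. Hoxa6 held 26 of these pairs, Hoxd10 22, Hoxd9 20, Hoxa11 15, Hoxa10 12 and Hoxd8 6. A match only says that these letters occur in the window.

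Library totals ranged from 16.5 to 23.1 M counts, of which the Hox genes took 3331 to 14000. Fibroblast markers were on in all libraries (13 of 13, summed level 41490 to 66190 CPM, that is counts per M counts of scaled library size). Fkbp5 and Tsc22d3, classical GR target genes, were called higher with Dex in GRwt/wt MEFs and in no mutant by edgeR, whereas DESeq2 called 1 of these 2 in GRD/D MEFs, where Fkbp5 was at 31.1 and 32.6 CPM in vehicle and at 93.9 to 118 CPM with Dex. Macrophage markers varied most among the other cell types, with a summed level of 19.1 to 5174 CPM in GRwt/wt vehicle, 17.5 to 105 in GRwt/wt Dex, 282 to 1810 in GRD/D, 323 to 796 in GRL/L and 8.16 to 86.3 in GRD+L/D+L libraries; 3 of the 12 were on in every library. GRwt/wt vehicle replicate 3 held the 5174 CPM. In GRwt/wt vehicle replicate 1, gene deviations from the median followed transcript GC content (Spearman rho 0.688 across genes, against at most 0.323 elsewhere), and the tested Hox genes have a median GC of 53.4% against 49.5% for all tested genes. Among the libraries with replicate number 2 in GRD/D, the vehicle library had Ddx3y at 89.9 CPM and Xist at 0.0517, whereas the Dex library had Ddx3y at 0 and Xist at 346, so this number does not stand for a single embryo there.

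A gene was taken as on at 1 CPM or more. Of the 39 Hox genes, 19 were on in all 23 libraries, 17 in some and 3 in none. The 19 comprised 8 of 10 Hoxb genes, 5 of 11 Hoxa genes, 5 of 9 Hoxc genes and 1 of 9 Hoxd genes (Hoxd8). Along the axis, 4 of 8 genes of paralog groups 1 to 3 were on everywhere, 12 of 15 of groups 4 to 8, and 3 of 16 of groups 9 to 13 (Hoxa9, Hoxb9 and Hoxc9). The genes on in no library were Hoxb1, a hindbrain gene with 0 counts in every library, Hoxb13, a tail bud gene with at most 8 counts, and Hoxc12 with at most 11 counts. In the libraries without a Hoxb1 count, a level of up to 0.136 to 0.187 CPM, worth 3 counts, could not have been detected.

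Libraries had 22 to 34 Hox genes on (median 30). The fewest were on in GRD+L/D+L replicate 2, with 23 in vehicle and 22 with Dex, and in replicate 3, with 24 and 25. Every library had Hoxb9 on as the highest-numbered Hoxb gene. In the Hoxa, Hoxc and Hoxd clusters the highest-numbered gene on ranged from paralog group 9 to 13, from 9 to 13 and from 8 to 13, respectively.

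**Figure D1:**
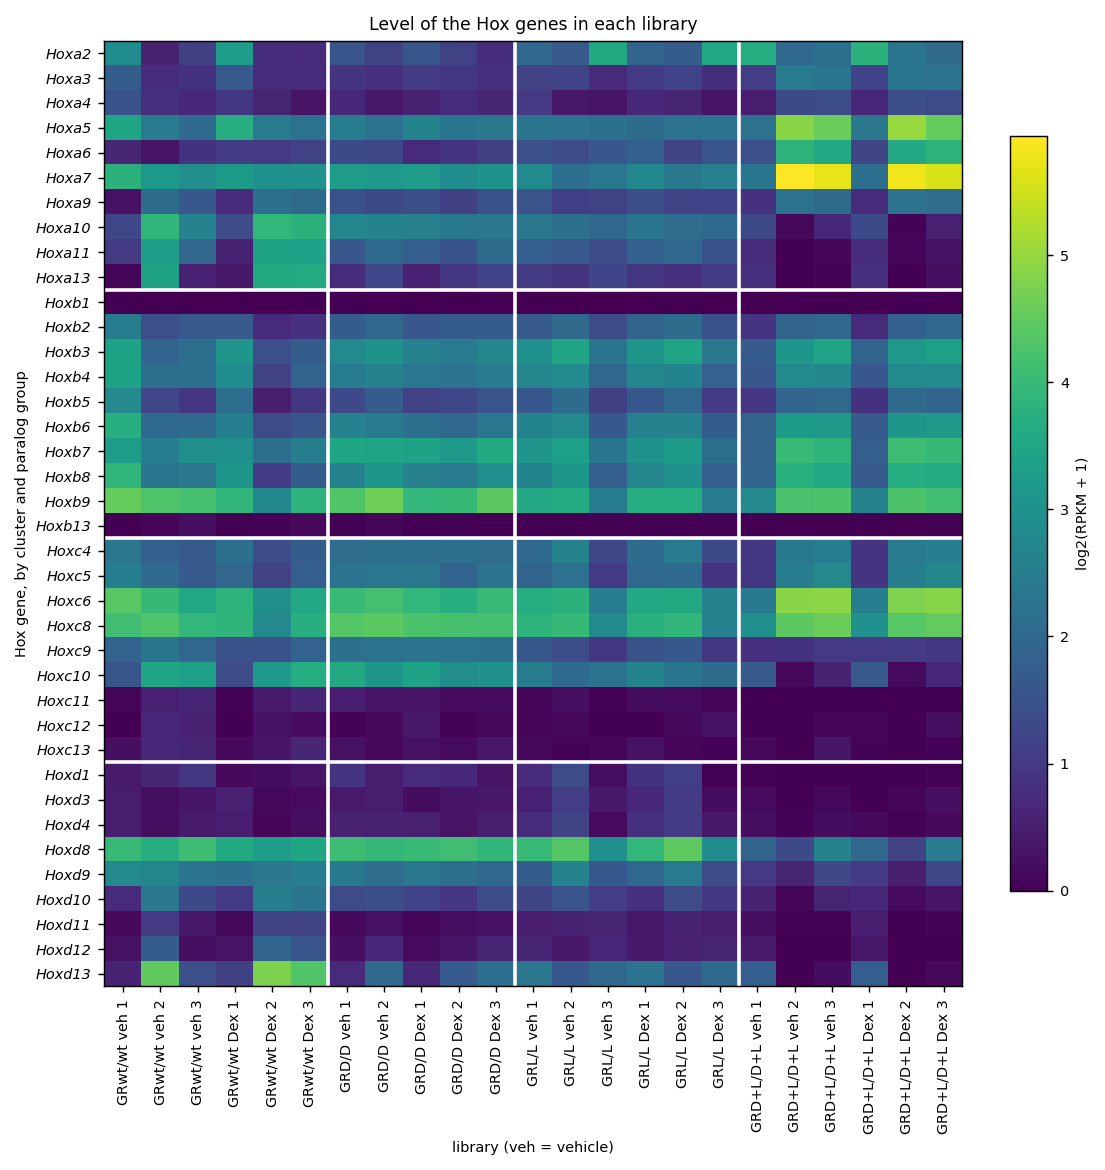
Level of the Hox genes reported here (rows, by cluster and paralog group) in the 23 libraries (columns, by genotype, treatment and replicate number), as log2(RPKM + 1), where RPKM is CPM per kilobase of exon. Most middle-numbered genes are filled in every column, but Hoxa4, Hoxa6 and Hoxd4 are low in many. Genes of groups 10 to 13 in the Hoxa and Hoxd clusters are highest in GRwt/wt vehicle replicate 2 and Dex replicates 2 and 3 and low in GRD+L/D+L replicates 2 and 3.

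Levels are compared between genes per kilobase of exon. The highest median levels over the libraries were those of Hoxc8 (14.7 RPKM), Hoxb9 (14.2 RPKM), Hoxc6 (12.98 RPKM) and Hoxd8 (11.9 RPKM), genes used in thoracic and nearby regions of the trunk. The highest level in any library was that of Hoxa7, at 60.1 RPKM in GRD+L/D+L vehicle replicate 2. Paralog groups 4 to 8 held 31.3% to 83.3% of the summed Hox RPKM of a library, and groups 1 to 3 held 3.23% to 27.5%.

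Groups 9 to 13, the posterior genes, varied widely between libraries of the same genotype in GRwt/wt and GRD+L/D+L but not in the other two. Their share of the Hox RPKM was 18.5, 54.1 and 36.7% in GRwt/wt vehicle and 18.2, 65.5 and 58.3% in GRwt/wt Dex libraries, in the order of the replicate numbers. GRD/D libraries held 30.9 and 32.3% in vehicle and 29.4, 29.7 and 32.6% with Dex, and GRL/L libraries 26.4, 22.5 and 27.98% in vehicle and 26.9, 23.8 and 27.2% with Dex. In GRD+L/D+L libraries the share was 23.8, 9.17 and 10.6% in vehicle and 23.1, 9.74 and 10.2% with Dex. GRwt/wt libraries therefore spanned nearly the whole range, the other genotypes lay inside it or, for GRD+L/D+L replicates 2 and 3, below it, and GRD+L/D+L replicate 1 lay above GRwt/wt replicate 1. Without paralog group 9, which was on broadly, the share of groups 10 to 13 ran from 0.116% to 54.9%. The Hoxd cluster held between 0.789% and 33.5% of the Hox RPKM.

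**Figure D2:**
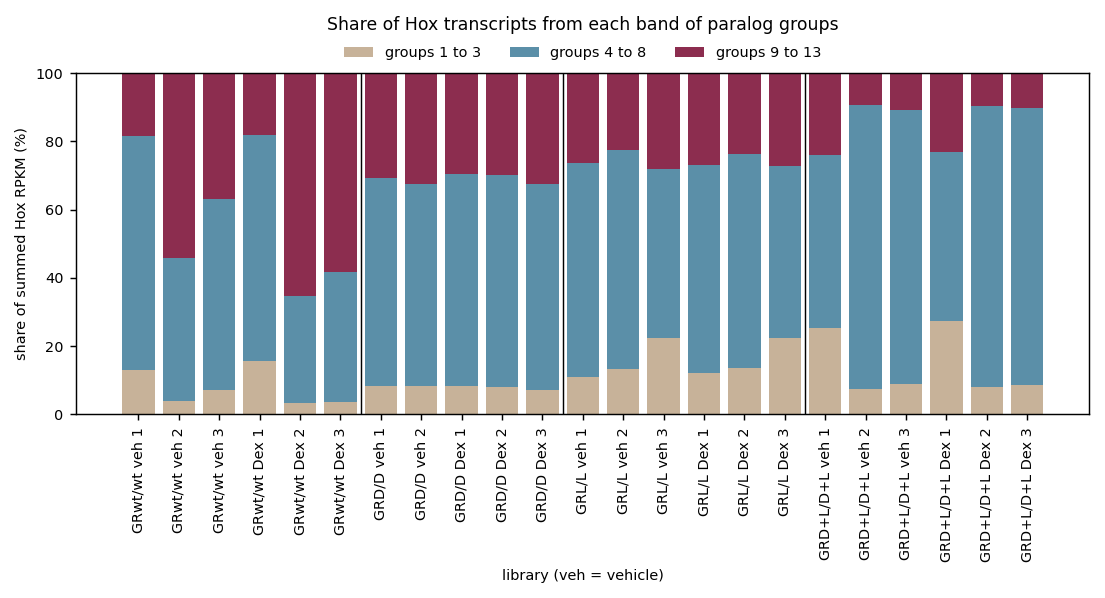
Share of the summed Hox RPKM (percent, stacked bars from 0 to 100) held by paralog groups 1 to 3, 4 to 8 and 9 to 13 in each of the 23 libraries. Groups 9 to 13 take 65.5% in GRwt/wt Dex replicate 2 and 9.17% in GRD+L/D+L vehicle replicate 2, and GRL/L libraries of the same number have near-equal bars in both treatments, as do GRD+L/D+L libraries.

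Among the anterior genes, those of groups 1 to 3, Hoxa2 varied most. Hoxa2, which acts in the hindbrain and the second pharyngeal arch, reached 19.7 CPM in GRL/L vehicle replicate 3 and 21.04 CPM in GRD+L/D+L vehicle replicate 1, whereas the other libraries of these vehicle groups lay at 4.04 to 6.30 CPM. It was at 11.4 CPM in GRwt/wt vehicle replicate 1 and at 0.859 and 2.08 CPM in the other two. Libraries with the same numbers stood out with Dex, at 18.7 CPM in GRL/L Dex replicate 3, 23.2 CPM in GRD+L/D+L Dex replicate 1 and 15.2 CPM in GRwt/wt Dex replicate 1. Hoxb2 stayed between 2.20 and 16.3 CPM. Hoxb3 ranged from 7.40 to 42.9 CPM, and 52.9% of its exonic length is shared with the antisense gene Hoxb3os, so its counts are uncertain. Counts of Hoxd3 are uncertain too, since 62.3% of its exonic length is shared with Hoxd4 and Gm28230 on its own strand, and it was on in 12 libraries.

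Among the middle genes, those of groups 4 to 8, the SD of log2 CPM was largest for Hoxa7, which helps to pattern the thoracic vertebrae. Hoxa7 measured 37.3, 22.9 and 19.1 CPM in vehicle and 24.2, 19.9 and 20.2 after Dex in GRwt/wt MEFs, against 24.98 and 22.9 in vehicle and 24.5, 18.3 and 20.6 after Dex in GRD/D MEFs. Its level was 17.5, 10.1 and 11.6 CPM in vehicle and 16.9, 11.9 and 14.4 after Dex in GRL/L MEFs, and 11.2, 173 and 147 in vehicle and 9.898, 157 and 134 after Dex in GRD+L/D+L MEFs. GRD+L/D+L replicates 2 and 3 were at 134 CPM or more and replicate 1 was near the bottom of all libraries, so the GRD+L/D+L libraries lay on both sides of the GRwt/wt libraries. Hoxa7 shares 20.4% of its exonic length with the antisense gene Hoxaas3.

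Hoxa6 and Hoxa5, the neighbours of Hoxa7, followed the same cultures. Vehicle libraries of GRwt/wt had 0.496, 0.215 and 0.725 CPM of Hoxa6 and Dex libraries 0.9097, 0.843 and 1.06, whereas vehicle libraries of GRD/D had 1.33 and 1.24 and Dex libraries 0.572, 0.739 and 1.03. Without ligand, Hoxa6 was at 1.499, 1.399 and 1.81 CPM in GRL/L and at 1.503, 11.6 and 9.54 in GRD+L/D+L libraries, and with Dex it was at 2.204, 1.16 and 1.702 in GRL/L and at 1.196, 9.599 and 11.7 in GRD+L/D+L libraries. Every GRD+L/D+L library was above every GRwt/wt library of the same treatment, narrowly for replicate 1 with Dex. Hoxa5, which acts in the cervical and lung-forming region, was at 53.6 and 43.2 CPM in GRD+L/D+L vehicle replicates 2 and 3 and at 6.84 CPM in replicate 1, against 6.07 to 19.1 CPM in GRwt/wt vehicle. Hoxa5, Hoxa6 and Hoxa7 in GRD+L/D+L replicate 1 were thus within or near the range of the other genotypes in both treatments.

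Hoxd8 was the only Hoxd gene on in every library. In GRwt/wt MEFs Hoxd8 was at 41.2, 32.6 and 44.1 CPM in vehicle and at 30.8, 24.1 and 28.8 with Dex, and in GRD/D MEFs at 43.9 and 39.6 in vehicle and at 40.9, 44.5 and 38.4 with Dex. GRL/L MEFs had 41.9, 52.7 and 18.6 CPM of Hoxd8 in vehicle and 38.8, 57.4 and 17.4 with Dex, and GRD+L/D+L MEFs had 7.41, 4.07 and 14.5 in vehicle and 8.27, 3.62 and 12.2 with Dex. All GRD+L/D+L libraries were below all GRwt/wt, GRD/D and GRL/L libraries. The genes of the Hoxb cluster from Hoxb4 to Hoxb9 and of the Hoxc cluster from Hoxc4 to Hoxc8 kept to narrower ranges. The widest of these by ratio was Hoxb5, from 1.12 CPM in GRwt/wt Dex replicate 2 to 16.49 CPM in GRwt/wt vehicle replicate 1.

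Posterior genes carried the largest spread over libraries. The SD of log2 CPM was 1.94 for Hoxd13, 1.65 for Hoxa10, 1.64 for Hoxa13, 1.55 for Hoxa11 and 1.52 for Hoxc10. Over the 36 Hox genes that passed the filter on low counts, the median of this SD was 1.07, against 0.466 over all 15748 tested genes.

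Hoxd13 and Hoxa13 pattern the hand and foot plate and the genital bud. Hoxd13 measured 1.27, 52.9 and 4.303 CPM in vehicle and 2.93, 64.7 and 46.9 after Dex in GRwt/wt MEFs, against 1.58 and 7.81 in vehicle and 1.43, 5.66 and 8.58 after Dex in GRD/D MEFs. Its level was 10.2, 5.22 and 7.55 CPM in vehicle and 9.33, 5.09 and 7.82 after Dex in GRL/L MEFs, and 5.96, 0 and 0.353 in vehicle and 6.04, 0 and 0.287 after Dex in GRD+L/D+L MEFs. GRwt/wt vehicle replicate 2 and Dex replicates 2 and 3 stood far above all other libraries, and GRD+L/D+L replicates 2 and 3 were at or close to 0. Vehicle libraries of GRwt/wt had 0.166, 23.8 and 1.13 CPM of Hoxa13 and Dex libraries 0.758, 27.4 and 28.3, whereas vehicle libraries of GRD/D had 1.72 and 3.57 and Dex libraries 1.14, 2.27 and 2.98. Without ligand, Hoxa13 was at 2.55, 2.099 and 3.41 CPM in GRL/L and at 1.86, 0 and 0.118 in GRD+L/D+L libraries, and with Dex it was at 2.298, 1.94 and 2.66 in GRL/L and at 1.96, 0 and 0.401 in GRD+L/D+L libraries. The same libraries were high and low as for Hoxd13, and GRwt/wt overlapped with GRD+L/D+L for both genes in both treatments.

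Hoxa11 and Hoxa10 act in the middle segment and upper part of the limb and in the lumbar region. In GRwt/wt MEFs Hoxa11 was at 2.32, 20.7 and 6.61 CPM in vehicle and at 1.16, 22.2 and 21.7 with Dex, and in GRD/D MEFs at 4.73 and 7.04 in vehicle and at 5.49, 4.14 and 7.54 with Dex. GRL/L MEFs had 5.497, 4.897 and 3.67 CPM of Hoxa11 in vehicle and 5.77, 6.75 and 4.15 with Dex, and GRD+L/D+L MEFs had 1.55, 0 and 0.177 in vehicle and 1.58, 0.172 and 0.516 with Dex. In vehicle the GRD+L/D+L libraries were all below the GRwt/wt libraries, whereas with Dex GRwt/wt replicate 1 fell among them. Hoxa11 shares 34.98% of its exonic length with the antisense gene Hoxa11os, which was itself at 10.95, 11.2 and 7.30 CPM in GRwt/wt vehicle replicate 2 and Dex replicates 2 and 3. Hoxa10 measured 4.58, 45.8 and 17.1 CPM in vehicle and 5.26, 46.6 and 42.8 after Dex in GRwt/wt MEFs, against 18.5 and 17.4 in vehicle and 16.3, 13.8 and 13.6 after Dex in GRD/D MEFs. Its level was 13.6, 11.7 and 9.82 CPM in vehicle and 12.9, 10.8 and 10.1 after Dex in GRL/L MEFs, and 4.82, 0.3201 and 1.88 in vehicle and 4.95, 0.115 and 1.43 after Dex in GRD+L/D+L MEFs. With Dex all GRD+L/D+L libraries were below all GRwt/wt libraries, and in vehicle GRD+L/D+L replicate 1 was just above GRwt/wt replicate 1.

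Hoxc10, a gene of the lumbar region and hindlimb, had a related pattern. Vehicle libraries of GRwt/wt had 3.81, 20.03 and 17.7 CPM of Hoxc10 and Dex libraries 2.98, 15.2 and 22.3, whereas vehicle libraries of GRD/D had 20.9 and 15 and Dex libraries 18.5, 12.8 and 13.5. Without ligand, Hoxc10 was at 8.94, 6.19 and 7.29 CPM in GRL/L and at 4.301, 0.183 and 0.942 in GRD+L/D+L libraries, and with Dex it was at 10.1, 7.47 and 6.33 in GRL/L and at 4.08, 0.2299 and 1.09 in GRD+L/D+L libraries. It was low in replicate 1 of GRwt/wt in both treatments and at 1.09 CPM or less in GRD+L/D+L replicates 2 and 3, and the groups overlapped.

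Hoxc9 and Hoxd9 act at the thoracic to lumbar transition. In GRwt/wt MEFs Hoxc9 was at 6.57, 9.61 and 7.02 CPM in vehicle and at 4.296, 4.45 and 6.43 with Dex, and in GRD/D MEFs at 8.62 and 8.95 in vehicle and at 9.21, 8.86 and 8.47 with Dex. GRL/L MEFs had 5.16, 3.98 and 2.22 CPM of Hoxc9 in vehicle and 4.27, 5.14 and 2.29 with Dex, and GRD+L/D+L MEFs had 1.97, 2.01 and 2.47 in vehicle and 2.45, 2.59 and 2.29 with Dex. GRD+L/D+L libraries were below GRwt/wt libraries in both treatments, and GRL/L vehicle libraries were below GRwt/wt vehicle libraries. Hoxd9 measured 12.6, 11.9 and 8.24 CPM in vehicle and 7.48, 8.71 and 10.2 after Dex in GRwt/wt MEFs, against 9.06 and 7.19 in vehicle and 8.86, 7.58 and 6.41 after Dex in GRD/D MEFs. Its level was 5.05, 11.2 and 4.499 CPM in vehicle and 6.24, 9.46 and 3.46 after Dex in GRL/L MEFs, and 2.07, 1.14 and 3.003 in vehicle and 2.28, 0.862 and 3.04 after Dex in GRD+L/D+L MEFs. All GRD+L/D+L libraries were below all libraries of the other genotypes.

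Hoxd10, which acts in the limb and lumbar spinal cord, was lower in all GRD+L/D+L than in all GRwt/wt libraries of the same treatment. Vehicle libraries of GRwt/wt had 1.16, 7.62 and 2.72 CPM of Hoxd10 and Dex libraries 1.82, 8.67 and 6.99, whereas vehicle libraries of GRD/D had 2.81 and 3.05 and Dex libraries 2.35, 1.67 and 2.98. Without ligand, Hoxd10 was at 2.499, 3.55 and 2.02 CPM in GRL/L and at 0.933, 0.137 and 0.942 in GRD+L/D+L libraries, and with Dex it was at 1.45, 2.82 and 1.702 in GRL/L and at 1.03, 0.2299 and 0.516 in GRD+L/D+L libraries. GRwt/wt vehicle replicate 2 and Dex replicates 2 and 3 were again the highest.

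Hoxc11, Hoxc13 and Hoxd1 had few reads in many libraries and are given as counts. In GRwt/wt MEFs Hoxc11 was at 2, 16 and 24 counts in vehicle and at 1, 15 and 18 with Dex, and in GRD/D MEFs at 16 and 10 in vehicle and at 10, 5 and 5 with Dex. GRL/L MEFs had 2, 6 and 1 counts of Hoxc11 in vehicle and 6, 5 and 3 with Dex, and GRD+L/D+L MEFs had 0 in vehicle and 0 with Dex. No read of Hoxc11, a hindlimb gene, was counted in GRD+L/D+L libraries. Hoxd1 measured 12, 19 and 38 counts in vehicle and 4, 6 and 8 after Dex in GRwt/wt MEFs, against 33 and 13 in vehicle and 21, 23 and 8 after Dex in GRD/D MEFs. Its level was 21, 56 and 6 counts in vehicle and 33, 39 and 1 after Dex in GRL/L MEFs, and 1, 0 and 0 in vehicle and 0, 0 and 1 after Dex in GRD+L/D+L MEFs. GRD+L/D+L libraries held at most 1 count of Hoxd1, which is used in sensory neurons. Vehicle libraries of GRwt/wt had 8, 27 and 30 counts of Hoxc13 and Dex libraries 5, 15 and 22, whereas vehicle libraries of GRD/D had 10 and 4 and Dex libraries 9, 6 and 14. Without ligand, Hoxc13 was at 4, 2 and 3 counts in GRL/L and at 5, 0 and 12 in GRD+L/D+L libraries, and with Dex it was at 11, 3 and 2 in GRL/L and at 2, 0 and 2 in GRD+L/D+L libraries. Hoxc13, a gene of the tail, nails and hair follicles, was above 1 CPM only in 3 GRwt/wt libraries, and its GRL/L vehicle libraries were all below the GRwt/wt vehicle libraries.

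**Figure D3:**
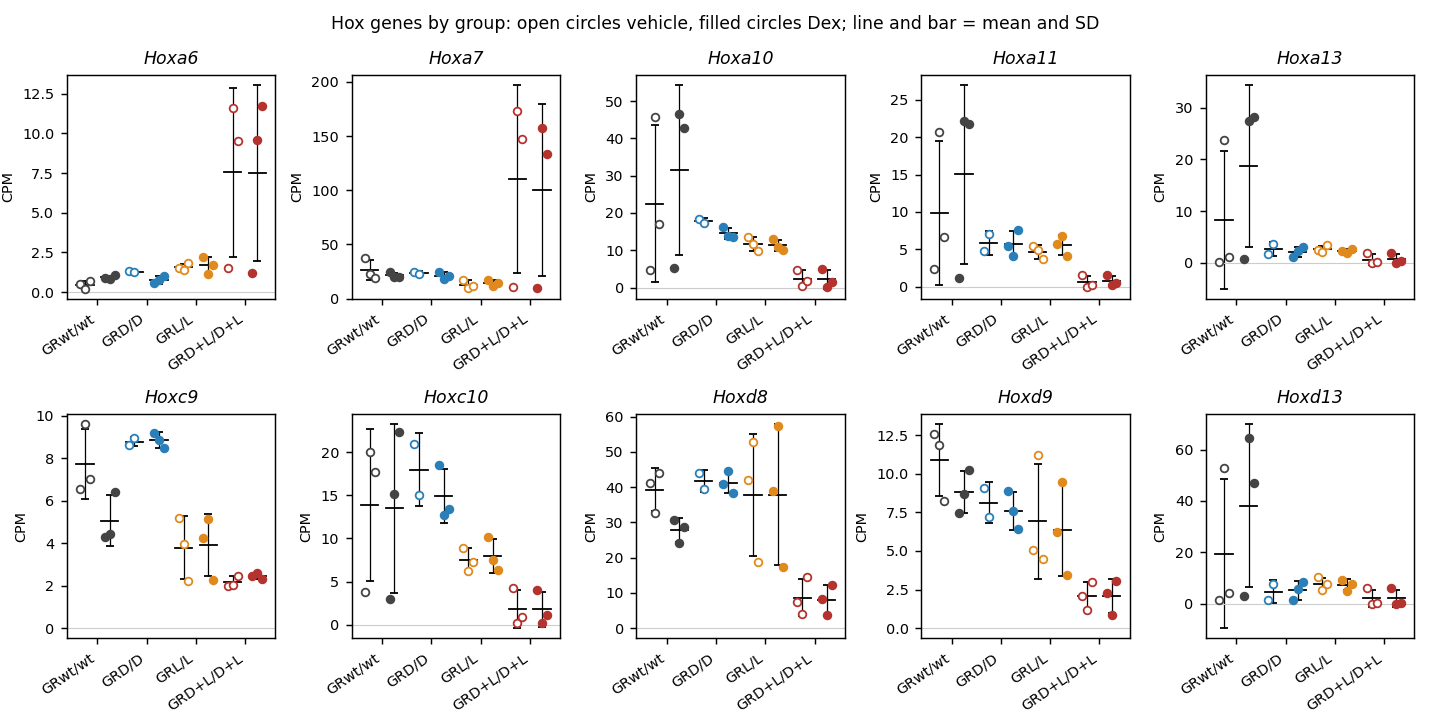
CPM of 10 Hox genes in each library, by genotype, with open points for vehicle, filled points for Dex, and bars for the mean and SD of each group (n = 3, or 2 for GRD/D vehicle). Hoxa6 and Hoxa7 split the GRD+L/D+L libraries into high and low points, Hoxa10, Hoxa11, Hoxa13 and Hoxd13 split the GRwt/wt libraries, and Hoxd8 and Hoxd9 are low in all GRD+L/D+L libraries.

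Whether libraries with equal numbers carried the same Hox pattern was described by the root mean square (RMS) difference in log2 CPM over the 36 filtered Hox genes, with no test. Of the 22 libraries with an equally numbered partner in the other treatment, 16 were most like that partner. This held for 6 of 6 libraries in GRL/L and 6 of 6 in GRD+L/D+L, but for 2 in GRD/D and 2 in GRwt/wt. Partners differed by 0.343, 0.249 and 0.413 in GRL/L and by 0.455, 0.422 and 0.491 in GRD+L/D+L.

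Among equally numbered GRwt/wt libraries, only those numbered 1 were most like each other (0.736). GRwt/wt vehicle replicate 2 was most like Dex replicate 3 (0.563), and vehicle replicate 3 differed from Dex replicate 3 by 1.33. The Hox pattern of GRwt/wt vehicle replicate 3 was closest to that of GRD/D vehicle replicate 1 (0.582), and over all genes it was closest to GRD/D Dex replicate 2 (0.539), which makes it the only library with a Hox pattern most like that of another genotype. Over all genes GRD/D Dex replicate 2 was in turn most like GRwt/wt vehicle replicate 3. Fkbp5 was at 44.9 CPM in GRwt/wt vehicle replicate 3 and at 94.8 CPM in GRD/D Dex replicate 2. Ddx3y and Xist were at 81.9 and 0.0453 CPM in the GRwt/wt library, whereas GRD/D vehicle replicate 1 and Dex replicate 2 had Ddx3y at 0 and Xist at 345 and 346 CPM. GRwt/wt vehicle replicate 3 and GRD/D Dex replicate 2 also had the highest summed macrophage markers (5174 and 1810 CPM). Whether the labels of this GRwt/wt library and a GRD/D library were exchanged was not tested, and the counts of called genes for Dex in GRwt/wt and for each mutant in vehicle are therefore also given without it. Its Hoxa13 and Hoxd13 levels of 1.13 and 4.30 CPM, for instance, lay within the 1.14 to 3.57 CPM and 1.43 to 8.58 CPM of GRD/D libraries or next to them. In GRD/D MEFs, vehicle replicate 2 was most like Dex replicate 3 (0.382), and the libraries numbered 1 were most like each other (0.369). The largest difference between any pair was 3.80, between GRwt/wt Dex replicate 2 and GRD+L/D+L vehicle replicate 2.

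Dex against vehicle asked whether the ligand changed Hox expression within a genotype. No Hox gene was called in any genotype by the quasi-likelihood test in edgeR, where a call needed a p adjusted after Benjamini-Hochberg of 0.05 or less and a log2 fold change (LFC) of 1 or more in either direction. The share of all tested genes called was 0.159% in GRwt/wt and 0% in each mutant. In GRwt/wt these were 25 genes, a count that ran from 14 to 374 when 1 library was left out (14 without Dex replicate 2, and 75, 374 and 95 without vehicle replicates 1, 2 and 3) with 0 Hox genes each time, and that was 199 with replicate numbers as blocks, 279 with DESeq2 and 0 with only the groups compared. At an unadjusted p under 0.05 there was 1 Hox gene in GRwt/wt and 0 in each mutant, and DESeq2 called 0 in each genotype. That gene was Hoxb2 (adjusted p = 0.295 in edgeR). The median LFC over the 36 genes was -0.30 in GRwt/wt, -5.1e-05 in GRD+L/D+L, -0.23 in GRD/D and -0.051 in GRL/L, beside a median over all genes of -0.00932 in GRwt/wt. LFCs of single Hox genes in GRwt/wt ran from -1.80 to 1.17, and none exceeded the spread between replicate libraries by the adjusted test.

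Where the numbers paired the libraries, that is in GRL/L as well as GRD+L/D+L MEFs, Hox levels moved little with Dex. In these genotypes edgeR called 0 of all 15748 genes with Dex. Fkbp5 and Tsc22d3 together were at 61.0 to 79.1 CPM in vehicle and 65.1 to 80.7 CPM with Dex in GRL/L. In GRD+L/D+L they were at 49.1 to 89.6 and 46.9 to 93.5 CPM. These pairs therefore cannot show whether Hox genes change where the receptor responds. Among Hox genes at 5 CPM or more, of which there were 12 to 23 per pair, the log2 ratio of Dex to vehicle lay between -0.24 and 0.31 in the 3 GRL/L pairs and between -0.31 and 0.35 in the 3 GRD+L/D+L pairs. For example, Hoxa7 changed from 173 to 157 CPM in GRD+L/D+L replicate 2 and from 17.5 to 16.9 CPM in GRL/L replicate 1. The Dex response of Hox genes was called different from that in GRwt/wt for 0 of 36 genes in each mutant, with 0 at an unadjusted p under 0.05 and 0 called by DESeq2 (share of all genes called 0% for GRD/D, 0.0254% for GRL/L and 0.0254% for GRD+L/D+L).

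With the replicate number as a block, Hoxb2 (LFC -1.32, adjusted p = 0.00321) and Hoxb8 (LFC -1.14, adjusted p = 0.0298) were called lower with Dex in GRwt/wt by edgeR, although the numbers did not pair these libraries over all genes (correlations of 0.548, 0.0266 and -0.0265). Over the Hox genes alone the equally numbered GRwt/wt libraries did deviate together (0.964, 0.902 and 0.343). In the same fit the Hoxb2 response in GRL/L differed from that in GRwt/wt (LFC 1.52, adjusted p = 0.0234). Hoxb2 was at 16.3, 6.07 and 7.70 CPM in GRwt/wt vehicle and at 7.68, 2.20 and 2.81 CPM with Dex, so the groups overlapped, but it was lower with Dex in each equally numbered pair.

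The comparison of each mutant with GRwt/wt in vehicle asked how the GR genotypes differed without ligand. In GRD/D MEFs 0 of 36 Hox genes were called, as were 0.00635% of all genes, with 0 Hox genes at an unadjusted p under 0.05 and 0 called by DESeq2. That share stood for 1 gene, against 28 by DESeq2 and 376 without GRwt/wt vehicle replicate 3, with 0 Hox genes in each. In GRL/L MEFs 2 Hox genes (5.56%, against 7.78% of all genes) were called, both lower (4.93% of all genes were called higher and 2.84% lower), and in GRD+L/D+L MEFs 10 (27.8%, against 8.32% of all genes) were called, 1 higher and 9 lower (3.62% of all genes were called higher and 4.71% lower). Without GRwt/wt vehicle replicate 3, 1 Hox gene was called in GRL/L (2674 of all genes, against 1225 with it) and 9 in GRD+L/D+L (2003 of all genes, against 1311). All adjusted p-values of these comparisons are from edgeR with Benjamini-Hochberg adjustment over all tested genes.

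In GRD+L/D+L the gene called higher was Hoxa6, with 7.54 ± 5.32 CPM (SD, n = 3) against 0.479 ± 0.256 in GRwt/wt (LFC 3.95, SE 0.75, adjusted p = 0.00227). Hoxd8 was lower, at 8.65 ± 5.32 against 39.3 ± 5.98 CPM (LFC -2.19, SE 0.49, adjusted p = 0.00601). Hoxd9 was lower as well, at 2.07 ± 0.93 against 10.9 ± 2.32 CPM (LFC -2.40, SE 0.47, adjusted p = 0.00266). For each of these genes the groups did not overlap.

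Hoxc9 had the smallest adjusted p of the Hox genes, at 2.15 ± 0.279 against 7.73 ± 1.64 CPM (LFC -1.84, SE 0.30, adjusted p = 0.00113). Hoxa11 (LFC -4.08, adjusted p = 0.0196) and Hoxd10 (LFC -2.52, adjusted p = 0.0245) were lower without overlap. Hoxa10 (LFC -3.27, adjusted p = 0.0295) and Hoxc10 (LFC -2.94, adjusted p = 0.0352) were lower with overlapping groups. Hoxc11 was at least 3.88-fold lower (adjusted p = 0.00906) and Hoxd1 at least 6.42-fold lower (adjusted p = 0.00828), both bounds against 3 counts per library.

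Among the posterior genes, Hoxa13 (LFC -3.65, adjusted p = 0.105), with 0.166 to 23.8 CPM in GRwt/wt vehicle, did not pass the test. Hoxd13 (LFC -3.21, adjusted p = 0.157), with 1.27 to 52.9 CPM there, did not pass it. Hoxa7 (LFC 2.06, adjusted p = 0.0633), Hoxa5 (LFC 1.62, adjusted p = 0.097) and Hoxa3 (LFC 1.29, adjusted p = 0.123) did not pass either. DESeq2, in contrast, called Hoxa7 (LFC 2.11, adjusted p = 0.019) and Hoxa5 (LFC 1.67, adjusted p = 0.0456) higher. For 9 of the 36 genes (25.0%) the GRD+L/D+L and GRwt/wt vehicle libraries did not overlap, against 27.4% of all genes, so absence of overlap was no more frequent among Hox genes than elsewhere. The median absolute LFC of the Hox genes was 1.45 and that of all genes 0.484.

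The count of called Hox genes in GRD+L/D+L depended on single libraries. It was 16 without GRD+L/D+L vehicle replicate 1, when Hoxa3, Hoxa5 and Hoxa7 were also called higher and Hoxa13, Hoxd12 and Hoxd13 lower. The LFC of Hoxa11 was then -6.81 and that of Hoxc10 -4.64. The count fell to 6 when GRD+L/D+L vehicle replicate 2 or GRwt/wt vehicle replicate 2 was left out. Both times Hoxa10, Hoxa11, Hoxc10 and Hoxd10 were no longer called. A fit without GRwt/wt vehicle replicates 1 and 3 leaves only replicate 2, the library of that group with the largest share of posterior genes. No count is given for it. Counts over all genes, 1311 with every library, were 1292 and 586 when GRD+L/D+L vehicle replicates 1 and 2, respectively, were dropped. They were 1578 without GRwt/wt vehicle replicate 2. Calls thus fell over all genes as well without GRD+L/D+L vehicle replicate 2, but rose over all genes without GRwt/wt vehicle replicate 2. When only the vehicle libraries of GRwt/wt and of GRD+L/D+L were fitted, 0 genes were called.

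In GRL/L vehicle libraries Hoxc9 was at 3.79 ± 1.48 CPM (LFC -1.03, SE 0.29, adjusted p = 0.0182 in edgeR). Hoxc13 was lower too (LFC -2.70, SE 0.94, adjusted p = 0.047), with 2 to 4 counts per GRL/L library against 8 to 30 in GRwt/wt. Neither was called without GRL/L vehicle replicate 3 or GRwt/wt vehicle replicate 2, or when only the groups compared were fitted (947, 1441 and 0 of all genes were, against 1225), and 1 of them was called without GRL/L vehicle replicate 1, GRL/L vehicle replicate 2 or GRwt/wt vehicle replicate 3 (797, 791 and 2674 of all genes). For 5 of 36 Hox genes (13.9%) the GRL/L and GRwt/wt vehicle libraries did not overlap, against 38.0% of all genes. In GRD/D the corresponding share was 13.9% against 23.2%.

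With Dex, 0 Hox genes were called in GRD/D, where 0.254% of all genes were called (0.0127% higher and 0.241% lower), and 3 of 36 Hox genes had an unadjusted p under 0.05 (1750 of 15748 genes did). In GRL/L 0 were called, against 2.59% of all genes (1.37% higher and 1.23% lower), and 2 had an unadjusted p under 0.05 (3579 of all genes did). DESeq2 called 0 Hox genes in both. The shares stood for 40 genes in GRD/D, which were 5 to 29 with 1 library left out (5 without GRD/D Dex replicate 3), 195 with only the groups compared and 283 by DESeq2, and for 408 genes in GRL/L, which were 148 to 469 with 1 library left out (148 without GRL/L Dex replicate 2), 744 and 778, with 0 Hox genes called each time. In GRD+L/D+L 7 were called (19.4%, against 2.75% of all genes), 1 higher and 6 lower (0.876% and 1.87% of all genes). Hoxa6 was higher (LFC 2.99, adjusted p = 0.0248). Hoxd9 (LFC -2.09, adjusted p = 0.0189), Hoxd10 (LFC -3.28, adjusted p = 0.022), Hoxa11 (LFC -4.29, adjusted p = 0.039), Hoxa10 (LFC -3.85, adjusted p = 0.0395) and Hoxd8 (LFC -1.80, adjusted p = 0.042) were lower. Hoxc11 was at least 3.63-fold lower (adjusted p = 0.0325).

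All 7 were also called in vehicle. Since vehicle and Dex libraries of the same number in GRD+L/D+L carried the same Hox pattern, the comparison with Dex is no independent repeat of that in vehicle. Hoxc9 was just short of the threshold with Dex (LFC -1.05, adjusted p = 0.0519). No Hox gene was called when GRD+L/D+L Dex replicate 2 or GRwt/wt Dex replicate 3 was left out (94 and 131 of all genes were, against 433 with every library). Leaving out GRwt/wt Dex replicate 2 gave 1 call (360 over all genes), and leaving out replicate 3 of the GRD+L/D+L Dex libraries gave 2 (205 over all genes). With the replicate number as a block 4 were called, 1 higher and 3 lower (420 over all genes), and with only the groups compared, 0 (8 over all genes). The libraries with Dex did not overlap with GRwt/wt for 25.0% of the Hox genes in GRD+L/D+L (30.0% of all genes), for 5.56% in GRL/L (42.7%) and for 13.9% in GRD/D (23.8%).

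**Figure D4:**
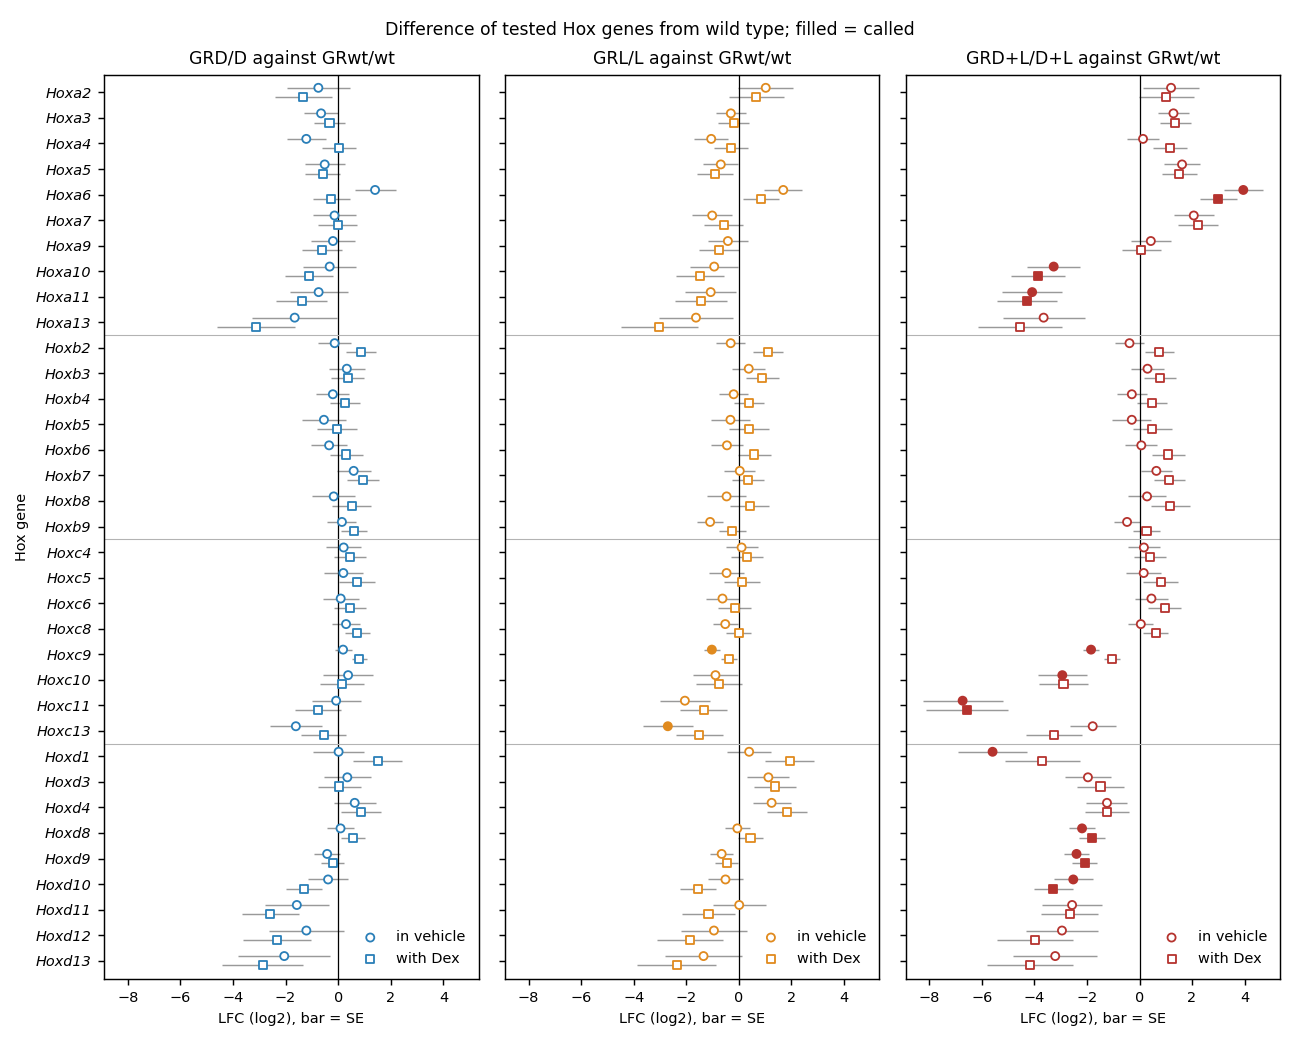
LFC ± SE (edgeR) of the filtered Hox genes reported here in each mutant (1 panel each) against GRwt/wt, in vehicle and with Dex, ordered by cluster and paralog group, with filled points for called genes. In the GRD+L/D+L panel Hoxa6 lies to the right of 0 and the Hoxa and Hoxc genes of groups 10 to 13 and all Hoxd genes to the left, whereas the LFCs of Hoxb genes are smaller; values for genes with 0 counts in a group, such as Hoxc11, depend on the prior count.

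Markers of other cell types also differed in the same genotype comparison. Of the 12 macrophage markers, 10 were called lower in GRD+L/D+L vehicle. By replicate number, their sum was 86.3, 9.88 and 58.3 CPM there, against 42.9, 19.1 and 5174 CPM in GRwt/wt vehicle. GRwt/wt vehicle replicates 1 and 2 thus lay within the GRD+L/D+L range, and replicate 3 far above it. Without GRwt/wt vehicle replicate 3, the library with the most macrophage RNA, 9 Hox genes were called in GRD+L/D+L vehicle. With Dex 0 of the 12 markers were called in GRD+L/D+L by edgeR (0 at an unadjusted p under 0.05, 0 by DESeq2), in the comparison in which 7 Hox genes were called. Head and anterior brain markers summed to 46.2 and 34.6 CPM in GRwt/wt Dex and vehicle replicate 1 and to 26.6 to 42.4 CPM in GRD+L/D+L replicates 2 and 3, and cartilage markers to 244 and 294 CPM in GRD+L/D+L vehicle and Dex replicate 1. Neural and neural crest markers summed to 10.8 to 33.6 CPM in GRD+L/D+L vehicle, against 41.5 to 103 CPM in GRwt/wt vehicle, and to 8.45 to 34.2 CPM against 40.3 to 65.1 CPM with Dex, so the groups did not overlap in either treatment. Of the 5 tested, Tubb3 was called lower in GRD+L/D+L vehicle (LFC -1.72, adjusted p = 0.00914 in edgeR) as well as GRL/L vehicle (LFC -2.19, adjusted p = 0.00178), and 0 were called in GRD+L/D+L with Dex (1 at an unadjusted p under 0.05, 0 by DESeq2). Endothelial markers summed to 16.7 to 20.9 CPM in GRD+L/D+L replicates 2 and 3, above every other library. The 1 skeletal muscle marker tested had an LFC of -3.19 in GRD+L/D+L vehicle and was called by DESeq2 but not by edgeR. The part of the macrophage, head, neural, cartilage, endothelial and muscle cells in the Hox results was not tested.

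Genes that work with or on Hox genes were counted from fixed lists. Of 11 TALE cofactors, homeodomain proteins that bind DNA together with Hox proteins, all were on in every library, and 2 were called higher in GRD+L/D+L vehicle, as were 3.62% of all genes. Among these was Meis2 (LFC 1.52, adjusted p = 0.00459 in edgeR). Of 18 Polycomb and trithorax genes, which keep Hox genes silent or active, 1 was called, Kmt2a, higher in vehicle in GRL/L (LFC 1.70, adjusted p = 4.33e-05) as well as GRD+L/D+L MEFs (LFC 1.64, adjusted p = 4.09e-05), comparisons in which 4.93% and 3.62% of all genes, respectively, were called higher. DESeq2 called 1 of the 18 in the former and 2 in the latter. Among the Cdx, retinoid and Gdf11 inputs, signals that set Hox expression in the early embryo, 0 of the 6 that passed the filter were called by edgeR in GRD+L/D+L vehicle (2 at an unadjusted p under 0.05, 1 called by DESeq2).

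Some genes of the limb field list were high in the libraries with high posterior Hox genes and others were not. Tbx4 and Pitx1, which specify the hindlimb, were at 34.2 and 20.9 CPM in GRwt/wt vehicle replicate 2, at 45.1 and 25.0 CPM in Dex replicate 2 and at 36.2 and 17.2 CPM in Dex replicate 3. In all other libraries Tbx4 was at 8.38 CPM or less and Pitx1 at 8.64 CPM or less. Tbx4 was at 0 to 0.118 CPM in GRD+L/D+L replicates 2 and 3, where Meox1, a gene of the somites, stood at 33.5 to 68.7 CPM. En1, a gene of the ventral limb, was at 12.6 and 19.97 CPM in GRwt/wt Dex replicates 2 and 3 and at 25.9 to 31.7 CPM in GRD+L/D+L replicates 2 and 3. Hand2, which acts in the posterior limb bud, was highest in GRwt/wt vehicle and Dex replicate 1 (26.2 and 19.4 CPM), and Shox2, a gene of the proximal limb, in GRL/L Dex replicate 2 (55.5 CPM). Of the 13 limb field genes tested in GRD+L/D+L vehicle, 1 was called higher (Meox1, LFC 4.11, adjusted p = 0.0196) and 3 lower, namely Hand2 (LFC -1.85, adjusted p = 0.0237), Lhx2 (LFC -3.75, adjusted p = 0.0283) and Shox2 (LFC -1.11, adjusted p = 0.0323), all by edgeR. With Dex the numbers were again 1 higher and 3 lower. At an unadjusted p under 0.05 there were 9 of the 13 in vehicle and 12 with Dex, and DESeq2 called 6 and 10. Of all genes, 3.62% were called higher and 4.71% lower in vehicle, and 0.876% higher and 1.87% lower with Dex.

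Noncoding genes of the clusters were counted in the same way. Of the 9 that passed the filter, 2 were called lower in GRD+L/D+L vehicle (4.71% of all genes were), both from the Hoxd cluster, namely Haglr (LFC -4.08, adjusted p = 0.0105 in edgeR) and Hoxd3os1 (LFC -2.31, adjusted p = 0.0169). The LFC of a gene with few or no counts in a group depends on the prior count. With Dex 0 of the 9 were called in GRD+L/D+L by edgeR (2 at an unadjusted p under 0.05, 1 called by DESeq2). Hottip, at the posterior end of the Hoxa cluster, was at 1.56, 2.16 and 0.749 CPM in GRwt/wt vehicle replicate 2 and Dex replicates 2 and 3. Hoxaas2, antisense to Hoxa3, was at 18.7 and 19.7 CPM in GRL/L replicate 3 and at 9.28 and 12.5 CPM in GRD+L/D+L replicate 1. It was at 10.2 and 6.92 CPM in GRwt/wt replicate 1, so its higher libraries were those in which Hoxa2 was high.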

How the data were processed

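Raw counts of reads per Ensembl gene were deposited for 23 libraries. The authors made these counts from TruSeq libraries sequenced on a NovaSeq instrument, mapped with HISAT2 2.1.0 to the mouse genome (mm10), kept uniquely mapped reads and counted them with featureCounts 2.0.0. The annotation release and strandedness are not given in the sources used here, so counts of genes that share exons are uncertain. Per the submitters' processing notes, FastQC and DESeq2 were also used.

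Of 55487 genes, 55227 matched GENCODE M21, which gave symbols, positions and exon lengths. CPM were computed on library sizes scaled by TMM, and RPKM is CPM per kilobase of exon. Counts were tested with edgeR 4.0.16 (quasi-likelihood test, R 4.3.3), fitting 1 mean per group and a common estimate of the spread over all 23 libraries, filterByExpr (15748 genes, 36 of them Hox) and a prior count of 0.125. The tests are two-sided, and p-values were adjusted over all tested genes by Benjamini-Hochberg. A call needed an adjusted p of 0.05 or less and an LFC of 1 or more in either direction, as in the study's methods, across 13 comparisons. SE was computed as the LFC over the root of its F statistic, and the script was tested on simulated data. With 16.5 to 23.1 M counts per library, 3 counts were worth 0.136 to 0.187 CPM. Such limits cover counting error only.

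Values in every library are given for Hox genes called in any comparison and for the 6 with a mean of at least 1 CPM and the largest SD of log2 CPM. The Hox genes and the gene lists were chosen with earlier results of these data known, and the sex-linked genes were added after seeing the data. A Hox gene and a cofactor enter the counts and sums but are not reported singly here.

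Replicate numbers come from the labels, which do not say that a number marks the same culture. The deviations of equally numbered vehicle and Dex libraries from their group means correlated at 0.322, 0.644 and 0.631 in GRL/L and at 0.887, 0.788 and 0.652 in GRD+L/D+L over all genes, so numbers were taken to pair these libraries. They correlated at 0.548, 0.0266 and -0.0265 in GRwt/wt and at 0.283 and -0.199 in GRD/D, so numbers were not taken as pairs there, although over the Hox genes alone these correlations were 0.964, 0.902 and 0.343 in GRwt/wt and 0.819 and 0.287 in GRD/D. Replicates all differed beyond counting noise (lowest mean chi-square per gene 8.73). Alternatives comprised RLE and upper-quartile scaling, other filters, a prior count of 2, adjusted p alone, only the groups compared, the replicate number as a block, DESeq2 1.42.0, and leaving out libraries.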

Additional observations from a re-analysis of the deposited data

How the results depend on the processing

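Over 39 settings, none of the 19 calls of single Hox genes changed direction. Of 281 values obtained for them, 209 remained called and 72 did not. In GRL/L vehicle the count of 2 became 1 with RLE scaling and with no filter, and 0 with at least 10 counts in every library or with only the groups compared. Over all genes the 1225 calls were then 1162, 988, 833 and 0. Leaving out 1 library gave 0 to 3 Hox genes (791 to 2674 of all genes). In GRD+L/D+L vehicle the count of 10 became 3 with at least 10 counts in every library, a filter that drops a gene for 1 library under 10 counts. It became 0 with only the groups compared, a fit that takes its spread from these groups alone. DESeq2 gave 12, and leaving out 1 library gave 6 to 16. Over all genes the 1311 calls became 715, 0, 1708 and 586 to 2003 under these settings. In GRD+L/D+L with Dex the count of 7 became 3 with at least 10 counts in every library, 0 with only the groups compared and 12 with DESeq2, and leaving out 1 library gave 0 to 9. Over all genes the 433 calls became 277, 8, 811 and 94 to 530. With only the groups compared, calls over all genes rose in GRD/D and GRL/L with Dex (195 and 744, against 40 and 408). The cause of these shifts was not tested. The median number of Hox genes on per library, 30 at 1 CPM, was 26 at 2 CPM and 35 at more than 3 counts.

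With the replicate number as a block, the numbers of called Hox genes changed from 0 to 2 for Dex in GRwt/wt (25 to 199 over all genes), from 0 to 1 for the difference of the Dex response between GRL/L and GRwt/wt (4 to 22), and from 7 to 4 for GRD+L/D+L with Dex (433 to 420). In GRwt/wt 2 of 6 libraries, and in GRD/D 2 of the 4 that have an equally numbered partner, were most like their own number over the Hox genes, a hint from the data and not from the design. No other count of Hox genes moved beyond 1.5 times under the block. Over all genes, calls also rose from 0 to 7 for Dex in GRD/D, and from 0 to 11 and from 4 to 16 for the difference of the Dex response of GRD/D and of GRD+L/D+L from that of GRwt/wt.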
